A study of Mus musculus with 6 samples.

Results

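Fibroblast growth factor (FGF) signalling was examined in the posterior eye of wild-type (WT) and Oa1-/- mouse embryos through 10 genes: the ligands Fgf9 and Fgf15, the receptors Fgfr1, Fgfr2 and Fgfr3, the feedback inhibitors Spry1, Spry2 and Dusp6, and the target transcription factors Etv4 and Etv5. Every probe set whose gene symbol in the annotation of the array (Affymetrix Mouse 430 2.0) was 1 of these 10 was taken, which gave 20 probe sets of 45101. The series compared 3 WT with 3 Oa1-/- samples at 15.5 days post coitum, and each sample was the pooled eyes of 6 embryos of 1 dam, with the front of the eye removed before total RNA was extracted. Oa1, now named Gpr143, encodes a receptor found in the melanosomes of pigment cells and mutated in ocular albinism. The labels name neither the strain nor the sexes nor which bases the Oa1 allele lacks, and they mention no drug or other agent.

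FGF ligands bind receptor tyrosine kinases together with heparan sulphate chains, and the activated receptors signal mainly through the Ras-MAPK relay. The relay switches on transcription factors of the ETS family, including Etv4 and Etv5, and at the same time genes that damp the signal, including the Sprouty genes and the ERK phosphatase gene Dusp6. For this reason the messages of Spry1, Spry2, Dusp6, Etv4 and Etv5 are widely used as readouts of FGF activity. In the eye, FGF signalling is known for directing the optic cup towards neural retina rather than pigment epithelium, for starting retinal neurogenesis and for driving lens fibre differentiation.

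The values were MAS5 signals, a linear measure of probe set brightness that the authors had scaled to the same level on each array. The median signal of the 6 arrays lay between 93.6 and 129. The highest bacterial control probe set, a measure of background, read between 22.1 and 39.3. Gpr143 read 250, 257 and 246 in WT, against 28.3, 39.1 and 6.02 in Oa1-/-, so every array followed its label on this probe set (log2 difference -2.82, SE 0.33, adjusted p = 0.287 in limma). WT replicate 3 stood apart by Y-linked signal, with Eif2s3y at 9.26 where the other arrays read between 406 and 805. The 3′ control for 18S ribosomal RNA read between 1476 and 1988 in WT and between 2608 and 6348 in Oa1-/-, the highest value being that of Oa1-/- replicate 1. Its 5′ control also separated the genotypes (2227 to 4049 in WT, 4828 to 11826 in Oa1-/-). The middle control overlapped, at 1371 to 2397 in WT and 1968 to 6576 in Oa1-/-. Retinal progenitor markers (Pax6, Six3, Sfrp2 and others, 14 of 14 above the filter on dim signals) and pigment epithelium markers (11 of 13 above it) were present. Lens markers were above the filter for 14 of 15 genes, with Cryaa, a lens crystallin, at a mean of 23093, so the samples held lens RNA although the front of the eye had been removed.

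For none of the 10 FGF genes was a difference between the genotypes detected beyond the spread of the litter pools. Of the 20 probe sets, 17 passed the filter on dim signals and were tested, and 0 had an adjusted p below 0.05 in limma, a linear model fitted to log2(signal + 16) of all probe sets. Over the whole array this rule called 0% of the 27029 probe sets tested. At an unadjusted p below 0.05 the count was 0 of the 17, where 4.11% of all tested probe sets passed, 1.66% higher and 2.45% lower in Oa1-/-. The WT and Oa1-/- arrays overlapped for all 17 as well, where 10.2% of all tested probe sets had groups that did not overlap, 4.95% higher and 5.3% lower. A positive log2 difference (Oa1-/- minus WT) was found for 10 of the 17 and a negative one for 7, where 47.5% of all tested probe sets lay above 0 and 52.5% below. With the brightest probe set standing for each gene, 5 of the 10 genes lay above 0 and 5 below, where 50.9% and 49.1% of the 12902 genes measured did. The median log2 difference was -0.00238 over the 10 genes and 0.00272 over all of them. In pooled tissue, fewer cells of a type and less RNA per cell cannot be told apart.

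**Figure D1:**
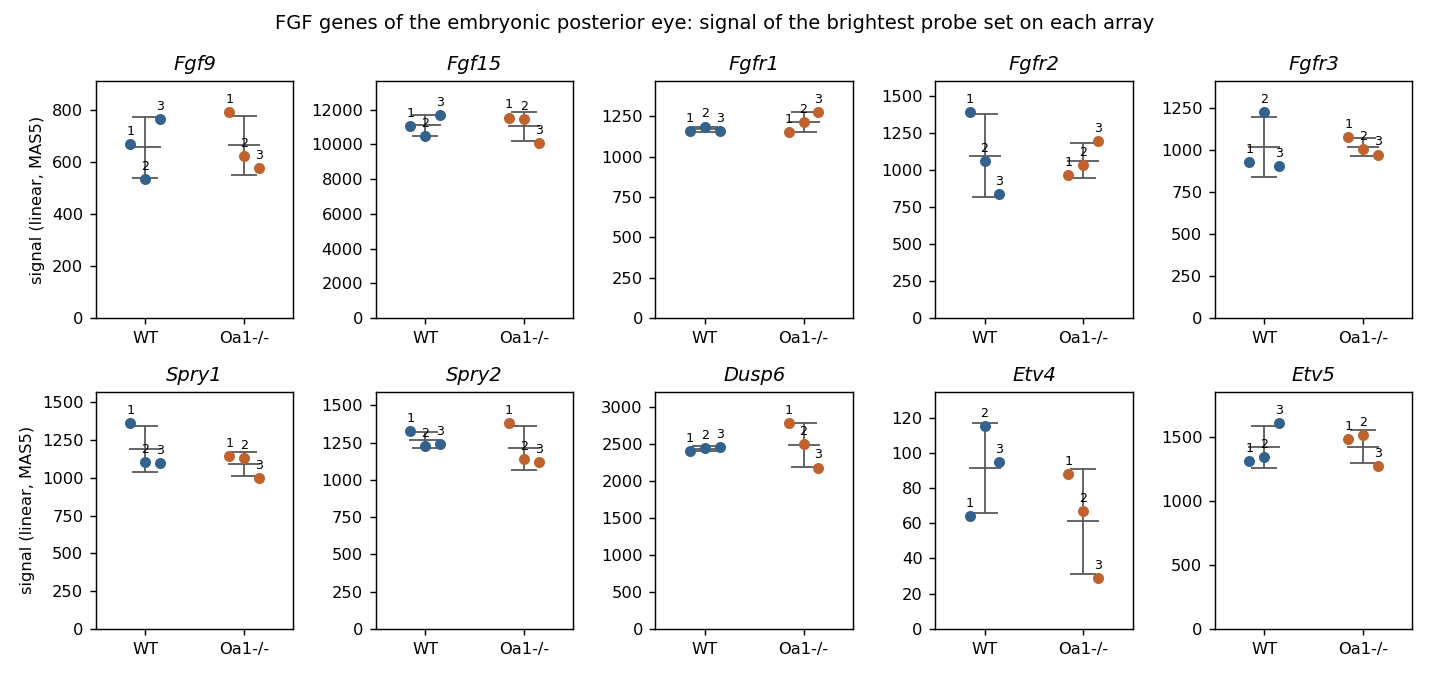
Signal of the brightest probe set of each FGF gene on every array, on a linear axis that starts at 0. Points are arrays, numbered by replicate, and horizontal bars with whiskers give the mean and SD of 3 arrays. The groups overlap for each of the 10 genes, and the lowest Etv4 point, 29.0, is Oa1-/- replicate 3.

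Of the ligands, Fgf15 is known as a product of dividing retinal progenitors. Its single probe set (1418376_at) read 11081, 10492 and 11714 in WT, against 11542, 11477 and 10070 in Oa1-/-. The arrays of both genotypes were interleaved, the highest being WT replicate 3 and the lowest Oa1-/- replicate 3. Between genotypes the log2 difference was -0.0099 (SE 0.082, adjusted p = 0.998 in limma), and its 95% interval ran from 0.872-fold to 1.13-fold of WT. Fgf15 was thus among the most tightly measured of the 10 genes, with an SD within genotypes of 0.10 on the log2 scale, where the median of all tested probe sets was 0.18.

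Fgf9 is a secreted ligand of the neural retina, known for setting its boundary with the pigment epithelium. Its brightest probe set (1438718_at) read 669, 533 and 763 in WT, against 791, 624 and 576 in Oa1-/-. Oa1-/- replicate 1 was the highest and WT replicate 2 the lowest, with the other arrays mixed between them. Fitted over the 6 arrays, the log2 difference was 0.020 (SE 0.17, adjusted p = 0.998 in limma), with an interval of 0.779-fold to 1.32-fold. The second Fgf9 probe set (1420795_at) read 487, 426 and 653 in WT, against 709, 408 and 582 in Oa1-/-. It too was highest on Oa1-/- replicate 1, and its log2 difference was 0.10 (SE 0.22, adjusted p = 0.989 in limma).

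The receptors are tyrosine kinases that share these ligands with different affinities. Fgfr1 had the steadiest signal of the 10 genes. Its brightest probe set (1424050_s_at) read 1158, 1187 and 1162 in WT, against 1155, 1212 and 1277 in Oa1-/-. The highest and the lowest array both belonged to Oa1-/-, and the highest was 1.11 times the lowest. The log2 difference was 0.054 (SE 0.084, adjusted p = 0.985 in limma), with an interval of 0.908-fold to 1.19-fold. The other Fgfr1 probe sets (1436551_at and 1425911_a_at) had log2 differences of 0.072 and 0.11, with adjusted p of 0.990 and 0.985 in limma.

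Fgfr2, a receptor also made strongly in epithelia such as lens and surface ectoderm, varied more between litters, with an SD within genotypes of 0.28 on the log2 scale. Its brightest probe set (1433489_s_at) read 1395, 1062 and 839 in WT, against 968, 1033 and 1197 in Oa1-/-. The WT arrays alone spanned the whole range, from WT replicate 1 at the top to WT replicate 3 at the bottom, and the Oa1-/- arrays lay between them. The second probe set (1420847_a_at) gave 217, 156 and 116 in WT, against 142, 149 and 156 in Oa1-/-, with the same WT arrays at the top and bottom. The log2 differences were -0.018 (SE 0.18, adjusted p = 0.998 in limma) and -0.077 (SE 0.23, adjusted p = 0.994). Summed lens marker signal was lowest on WT replicate 1 (137122) and highest on WT replicate 3 (189457), and its part in the Fgfr2 values was not tested. Summed surface epithelium signal followed the same order, 7445 on WT replicate 1 and 13411 on WT replicate 3, and its part was not tested either. The remaining Fgfr2 probe set (1443211_at) read between 4.03 and 42.5, near the background, and was not tested.

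Fgfr3, a receptor of progenitors and glia in the nervous system, read 926, 1225 and 905 in WT, against 1075, 1007 and 972 in Oa1-/- (1421841_at). WT replicate 2 was the highest, and the 3 Oa1-/- arrays fell inside the WT range. Between genotypes the log2 difference was 0.012 (SE 0.13, adjusted p = 0.999 in limma), with an interval of 0.821-fold to 1.24-fold. Its other probe set (1425796_a_at), between 21.9 and 79.0, did not pass the filter.

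The feedback inhibitors are switched on by the pathway they restrain. The Sprouty proteins Spry1 and Spry2 act on the relay upstream of ERK, and Dusp6 is a cytoplasmic phosphatase that removes the activating phosphates of ERK. Spry1 (1415874_at) read 1365, 1106 and 1100 in WT, against 1144, 1134 and 999 in Oa1-/-. WT replicate 1 stood above the other 5 arrays, and Oa1-/- replicate 3 was the lowest. Fitted over the 6 arrays, the log2 difference was -0.12 (SE 0.11, adjusted p = 0.985 in limma; exact permutation p = 0.6, two-sided, where 3 against 3 cannot give less than 0.1). Its interval ran from 0.769-fold to 1.11-fold of WT.

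Spry2 (1436584_at) read 1328, 1229 and 1240 in WT, against 1383, 1137 and 1122 in Oa1-/-. The highest and the lowest arrays were both Oa1-/-, replicates 1 and 3. The log2 difference was -0.065 (SE 0.11, adjusted p = 0.985 in limma), with an interval of 0.809-fold to 1.13-fold. The dimmer Spry2 probe set (1421656_at), between 47.6 and 89.3, had a log2 difference of the other sign, 0.16 (SE 0.25, adjusted p = 0.985 in limma), and the mean of both was 0.045.

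Dusp6 (1415834_at) read 2401, 2436 and 2461 in WT, the closest agreement of WT arrays among the feedback genes, and 2780, 2494 and 2179 in Oa1-/-. Here the Oa1-/- arrays lay on both sides of the WT arrays, with replicate 1 above and replicate 3 below all of them. Between genotypes the log2 difference was 0.023 (SE 0.098, adjusted p = 0.996 in limma), with an interval of 0.870-fold to 1.19-fold.

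Etv5 and Etv4 are ETS factors of the PEA3 group, transcription factors whose genes are themselves induced by FGF. Etv5 (1428142_at) read 1308, 1341 and 1611 in WT, against 1484, 1511 and 1274 in Oa1-/-. WT replicate 3 was the highest and Oa1-/- replicate 3 the lowest. Fitted over the 6 arrays, the log2 difference was 0.0052 (SE 0.11, adjusted p = 0.999 in limma), with an interval of 0.839-fold to 1.20-fold. The dimmer Etv5 probe sets 1450082_s_at and 1420998_at had log2 differences of 0.20 and -0.052, with adjusted p of 0.985 and 0.996 in limma.

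Etv4 had the largest log2 difference between genotypes of the 10 genes, at a signal within a few-fold of the background. Its brightest probe set (1423232_at) read 64.2, 115 and 94.6 in WT, against 87.7, 66.7 and 29.0 in Oa1-/-. Oa1-/- replicate 3 was far below the other arrays and under the highest unspiked bacterial control of its own array (39.3). In contrast, Oa1-/- replicates 1 and 2 lay inside the WT range. The log2 difference was -0.53 (SE 0.35, adjusted p = 0.985 in limma; exact permutation p = 0.3, two-sided), with an interval of 0.400-fold to 1.20-fold. Without Oa1-/- replicate 3 it was -0.18, and without Oa1-/- replicate 1 it was -0.79 (unadjusted p 0.0453, adjusted p = 1.00 in limma). Over the alternatives that tested it, its adjusted p in limma stayed at 0.415 or above. The other Etv4 probe set (1443381_at) read between 8.35 and 83.6, did not pass the filter, and was highest on Oa1-/- replicate 3, the array on which the first was lowest.

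**Figure D2:**
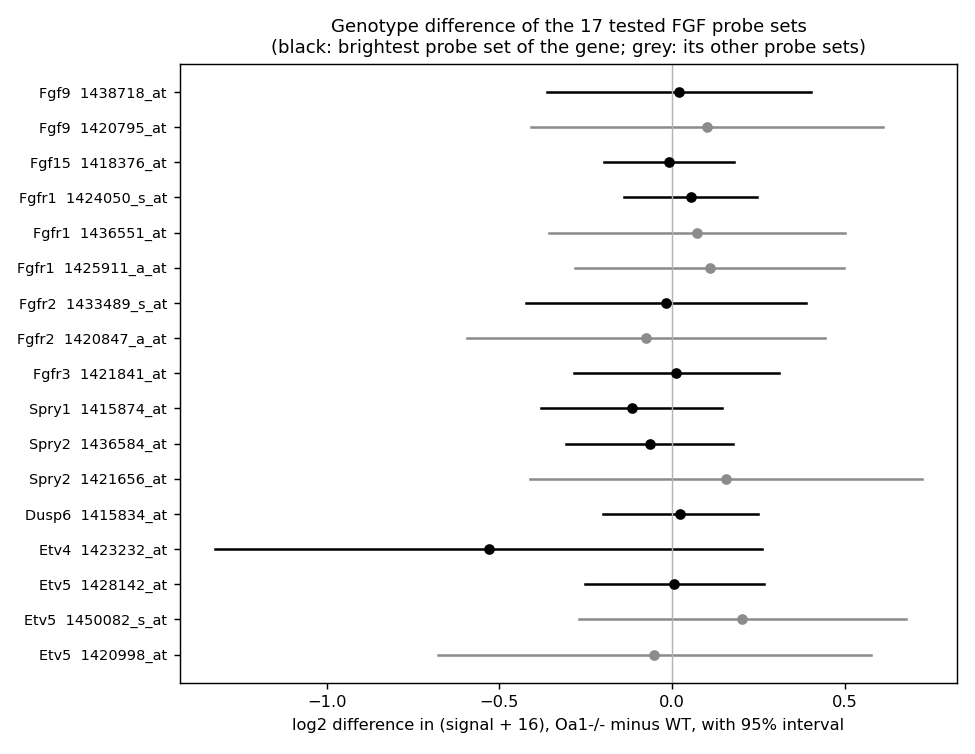
Log2 difference in (signal + 16), Oa1-/- minus WT, for the 17 FGF probe sets tested, with 95% intervals from limma over 3 arrays per genotype. All 17 intervals include 0, and the black points of 9 of the 10 genes lie between -0.12 and 0.054, with Etv4 at -0.53.

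Across arrays, most of the 10 genes were lowest on the same litter pool. Oa1-/- replicate 3 gave the lowest value of the 6 arrays for 6 of the 10 genes, namely Fgf15, Spry1, Spry2, Dusp6, Etv4 and Etv5. These take in both ETS factors and all 3 feedback inhibitors of the 10. Over all tested probe sets that array was the lowest in 12.9%, and over genes by their brightest probe set in 15.4%. On it Spry1, Spry2, Dusp6, Etv5 and Fgf15 read 85.4%, 88.8%, 86.7%, 87.8% and 89.4% of the mean of the other 5 arrays, and Etv4 read 33.8%. Fgf9 read 85.1% on it, though WT replicate 2 was lower still. The receptors Fgfr1, Fgfr2 and Fgfr3 read 109%, 113% and 94.6% there. Oa1-/- replicate 1, of the same genotype, was the highest array for 3 of the 10, Fgf9, Spry2 and Dusp6, and for 17.6% of all tested probe sets. The count lowest on Oa1-/- replicate 3 was 5 of 10 after quantile normalization, where 16.7% of all tested probe sets were lowest on it, and 7 of 10 after median centring, where 35.3% were. The count highest on Oa1-/- replicate 1 was 3 of 10 and 8 of 10 under these scalings, where 25.6% and 51.2% of all tested probe sets were. Summed retinal progenitor signal on Oa1-/- replicate 3 was 82602, within the range of 74961 to 84169 of the other arrays. The shared low array was noticed in the values and not tested, and among the dimmer probe sets of the 10 genes that were tested 0 of 7 were lowest on that array. Of the other feedback inhibitors and targets tested below, only Spred3, Ets2 and Egr1 were lowest on it by their brightest probe set. All others of that list, Spry4, Dusp4 and Dusp7 among them, were lowest on another array.

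**Figure D3:**
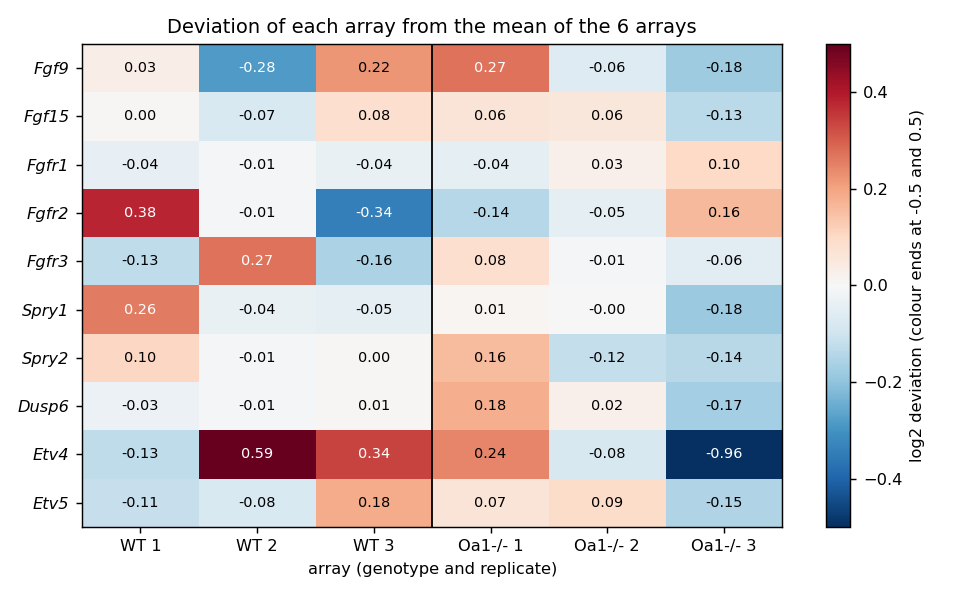
Log2 deviation of each array from the mean of the 6 arrays for the brightest probe set of each FGF gene, with blue below and red above the mean. The column of Oa1-/- replicate 3 is negative for Fgf9, Fgf15, Fgfr3, Spry1, Spry2, Dusp6, Etv4 and Etv5 and positive for Fgfr1 and Fgfr2. The column of Oa1-/- replicate 1 has the opposite sign for every gene, and that of Oa1-/- replicate 2 also holds both signs.

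Promoter sequences from RefSeq (build GRCm38.p6) are shown for Spry1, Spry2, Dusp6 and Etv5, which were among the 6 genes lowest on that array. The 250 bases before each annotated start are given because these genes are read as outputs of ETS factors downstream of FGF. Capitals mark the ETS core GGAA, or TTCC where the core lies on the other strand.
Spry1, chr3:37639697-37639946, plus strand: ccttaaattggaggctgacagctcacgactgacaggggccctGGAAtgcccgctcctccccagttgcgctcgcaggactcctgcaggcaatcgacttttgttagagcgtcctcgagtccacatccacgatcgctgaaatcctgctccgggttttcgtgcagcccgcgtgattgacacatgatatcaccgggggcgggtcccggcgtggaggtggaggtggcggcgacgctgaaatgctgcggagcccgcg
Spry2, chr14:105896820-105897069, minus strand: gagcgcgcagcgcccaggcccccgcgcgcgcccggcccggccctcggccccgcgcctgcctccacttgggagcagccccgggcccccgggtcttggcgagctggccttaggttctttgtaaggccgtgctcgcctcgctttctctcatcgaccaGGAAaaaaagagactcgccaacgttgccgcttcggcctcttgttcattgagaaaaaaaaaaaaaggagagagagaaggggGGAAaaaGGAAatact
Dusp6, chr10:99262981-99263230, plus strand: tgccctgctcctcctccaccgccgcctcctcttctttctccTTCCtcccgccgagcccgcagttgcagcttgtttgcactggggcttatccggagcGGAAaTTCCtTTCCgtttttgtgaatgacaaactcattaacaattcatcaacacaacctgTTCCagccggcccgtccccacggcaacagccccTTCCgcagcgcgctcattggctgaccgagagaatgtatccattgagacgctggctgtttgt
Etv5, upstream start, chr16:22439571-22439820, minus strand: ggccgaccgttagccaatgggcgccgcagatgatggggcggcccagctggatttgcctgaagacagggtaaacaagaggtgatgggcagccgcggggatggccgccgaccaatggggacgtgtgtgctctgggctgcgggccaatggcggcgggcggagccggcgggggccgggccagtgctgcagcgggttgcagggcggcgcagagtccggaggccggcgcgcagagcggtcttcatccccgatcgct
Etv5, downstream start, chr16:22438369-22438618, minus strand: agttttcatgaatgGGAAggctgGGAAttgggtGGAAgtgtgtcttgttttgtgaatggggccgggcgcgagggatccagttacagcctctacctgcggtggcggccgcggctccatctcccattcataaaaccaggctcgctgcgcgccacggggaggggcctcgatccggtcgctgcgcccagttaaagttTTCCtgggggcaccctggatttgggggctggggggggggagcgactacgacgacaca
The Dusp6 window held 6 cores, the downstream Etv5 window 4, the Spry2 window 3, the Spry1 window 1 and the upstream Etv5 window 0. The core is common, and 93.4% of the 32851 windows of this length in the table held at least 1 on either strand, with a median of 3. The PEA3 site AGGAAG, or CTTCCT on the other strand, contains the core, and 29.5% of all windows held it. It was found once in the Dusp6 window and in 0 of the other windows shown. No window was available for Fgf15 and Etv4, the remaining genes lowest on Oa1-/- replicate 3. Windows of Fgf9, Fgfr2 and Fgfr3, genes not lowest on it, were available but are not shown. With these included, 8 of 9 windows held the core and 2 of 9 the PEA3 site, the second in Fgfr2. An Fgfr3 window held 5 cores. These matches are letters in a window, and binding was not measured.

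The rest of the pathway was examined through 6 lists. Over all genes by their brightest probe set, 3.65% had an unadjusted p below 0.05, 10.8% had groups that did not overlap and 0% had an adjusted p below 0.05 in limma. The share at that unadjusted p was 1.68% higher and 1.97% lower in Oa1-/-, and the share without overlap was 5.48% higher and 5.3% lower. In each of the 6 lists 0 genes had an adjusted p below 0.05.

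Most other FGF ligands were too dim to test. Of 16 on the array, 13 did not pass the filter, with means between 6.96 and 65.7, and Fgf8 and Fgf10, which act in early eye and gland formation, had means of 20.0 and 49.5. The 3 tested were Fgf3, Fgf7 and Fgf18, and 0 had an unadjusted p below 0.05. Fgf3, a ligand of the early eye and inner ear, read 883, 919 and 1129 in WT, against 1011, 967 and 791 in Oa1-/-, on its brightest probe set. Its log2 difference was -0.080 (SE 0.13), against 0.20 and 0.14 for its probe sets 1441914_x_at and 1422923_at. Oa1-/- replicate 3 was the lowest array on the brightest probe set but the highest on 1441914_x_at (578). On 1441914_x_at all Oa1-/- arrays were above all WT arrays, as on 4.95% of all tested probe sets. The groups overlapped on the brightest probe set and on 1422923_at. WT replicate 1 was the lowest on 1422923_at (299). Fgf18 had a log2 difference of -0.25 (SE 0.17) and Fgf7, a mesenchymal ligand, one of -0.087 (SE 0.26), each with groups that overlapped.

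The intracellular FGF homologous factors are not secreted and bind voltage-gated sodium channels or microtubules in neurons. Of 4, all were tested and 0 had an unadjusted p below 0.05, with a median log2 difference of 0.070. Fgf13 read 2279, 2325 and 2795 in WT, against 3032, 2599 and 2680 in Oa1-/-, a log2 difference of 0.17 (SE 0.10), and Fgf12 had one of 0.18 (SE 0.15). Genes listed as retinal ganglion cell markers lay in the same direction, with positive differences in 10 of 12. Their summed signals were 49363 to 52820 in WT, against 54652 to 60491 in Oa1-/-. The largest log2 differences were those of Sncg, Stmn2, Dcx and Gap43, between 0.27 and 0.36, where Pou4f1 had 0.095, Isl1 0.10 and Ebf1 -0.13. The part of the listed genes in the Fgf13 and Fgf12 values was not tested. Fgf14 went the other way on its brightest probe set, at -0.38 (SE 0.54), with values between 46.1 and 279 that overlapped widely. Its other tested probe set (1435747_at) had a positive difference, 0.39 (SE 0.19). The groups did not overlap on that probe set, as on 10.2% of all tested probe sets.

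Among other receptors and co-receptors, 8 of 10 were tested, 4 had a positive and 4 a negative difference and 0 had an unadjusted p below 0.05. Flrt3, a membrane protein that binds FGF receptors and promotes their signalling, read 1456, 1230 and 1279 in WT, against 1245, 1094 and 1206 in Oa1-/- (log2 difference -0.16, SE 0.10). The decoy receptor gene Fgfrl1, whose product lacks a kinase domain, had a log2 difference of 0.14 (SE 0.15), and L1cam, an axonal adhesion molecule that can activate FGF receptors, one of 0.088 (SE 0.071). The Klotho co-receptor genes Kl and Klb lay under the filter.

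Genes of heparan sulphate, the sugar chain that holds ligand and receptor together, had more negative than positive differences. Of 15 tested, 11 had a negative and 4 a positive log2 difference, with a median of -0.076, and 1 had an unadjusted p below 0.05. Gpc3, a membrane-anchored glypican, read 2271, 2095 and 2469 in WT, against 1968, 1771 and 2043 in Oa1-/-. The 3 Oa1-/- arrays lay below the 3 WT arrays, with a log2 difference of -0.24 (SE 0.095, unadjusted p 0.0345, adjusted p = 0.985 in limma). Gpc1, another glypican, read 1993, 2065 and 2382 in WT, against 1900, 1783 and 1882 in Oa1-/-, again without overlap (log2 difference -0.21, SE 0.091, adjusted p = 0.985). Ndst2, an enzyme that sulphates the chain, had a log2 difference of -0.29 (SE 0.14) with overlapping groups. Groups without overlap thus numbered 2 of 15. Periocular mesenchyme markers had negative differences in 12 of 15 genes, with a median of -0.16 and summed signals of 85174 to 103791 in WT, against 89208 to 95018 in Oa1-/-, and their part in the glypican values was not tested.

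The Ras-MAPK relay carries the signal from receptor to nucleus, and 14 of its 22 listed genes were measured. Positive and negative differences numbered 7 each, the median log2 difference was 0.00116, and 0 had an unadjusted p below 0.05. Araf, a Raf kinase gene, read 525, 555 and 391 in WT, against 647, 591 and 610 in Oa1-/- on its brightest probe set (log2 difference 0.33, SE 0.15, adjusted p = 0.985 in limma). Its groups did not overlap, the only such gene of the 14. The adaptor Shc1 had a log2 difference of -0.22 (SE 0.12) and the ERK-activated kinase Rps6ka3 one of 0.16 (SE 0.10).

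The other feedback inhibitors and targets held genes whose groups separated in each direction. Of 23 tested, 14 had a negative and 9 a positive difference, with a median of -0.082. An unadjusted p below 0.05 was found for 2, 1 in each direction, and groups without overlap for 5. Dusp4, a nuclear ERK phosphatase, read 769, 767 and 726 in WT, against 931, 943 and 869 in Oa1-/-. All Oa1-/- arrays were above all WT arrays, with a log2 difference of 0.27 (SE 0.092, unadjusted p 0.0171, adjusted p = 0.985 in limma).

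Spry4, another Sprouty inhibitor, lay in the other direction. It read 113, 109 and 157 in WT, against 90.0, 66.5 and 79.7 in Oa1-/-, so that the groups did not overlap. Its log2 difference was -0.58 (SE 0.22, unadjusted p 0.0280, adjusted p = 0.985 in limma). The second Spry4 probe set above the filter (1445669_at) had a mean of 105 in WT, against 85.5 in Oa1-/- (log2 difference -0.25, unadjusted p 0.225 in limma), also without overlap. Dusp7, another cytoplasmic ERK phosphatase, read 319, 294 and 301 in WT, against 253, 255 and 257 in Oa1-/-, with no overlap and a log2 difference of -0.24 (SE 0.13, unadjusted p 0.0956, adjusted p = 0.985 in limma). The remaining genes without overlap were Fos, lower in mean, and Ier2, higher in mean, which were singled out after their values were seen.

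**Figure D4:**
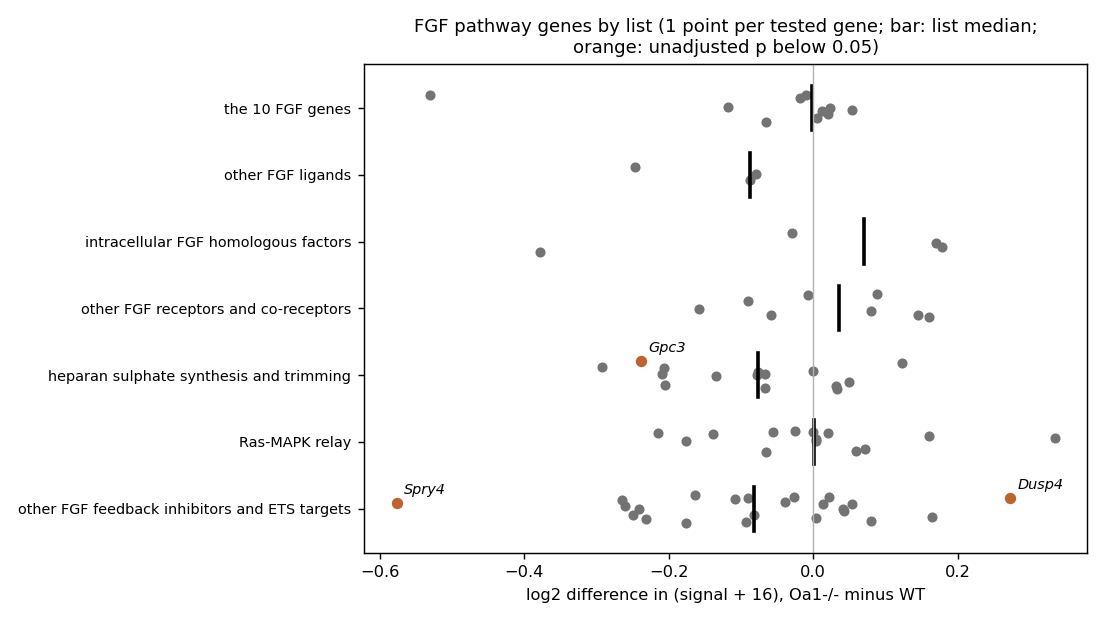
Log2 difference in (signal + 16), Oa1-/- minus WT, for the brightest probe set of every tested gene in the 10 FGF genes and the 6 other pathway lists, with a bar at each list's median. Orange points have an unadjusted limma p below 0.05, which applied to Gpc3, Spry4 and Dusp4, at adjusted p of 0.985 each, and to 0 of the 10 FGF genes.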

How the data were processed

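The 6 samples, 3 per genotype, were each a litter pool of 6 embryos, and grouping followed the sample titles. The authors deposited linear intensity values, MAS5 signals per the submitters' processing notes, which name no version. They appear scaled array by array, since the mean after trimming 2% at each end was 500.002 on all 6. Detection calls were not used here. Control probe sets (64 of 45101) were left out of the tests. Genes were named through the platform annotation (34945 probe sets with 1 symbol, 932 with several, 9160 with none), and RefSeq identifiers changed 0 symbols.

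Tests used log2(signal + 16) of those values as they stood. Probe sets whose mean log2 value lay above the 40th percentile of all probe sets entered the fit (27029). R 4.3.3 and limma 3.58.1 (lmFit, eBayes with trend) gave two-sided tests with Benjamini-Hochberg adjustment over the 27029 at 0.05, without covariates. A fold is on the log2(signal + 16) scale and understates dim genes. The number of arrays limits the precision. The code was tested on simulated data. The 10 genes and the lists were chosen with earlier results of these data known. From each other list, up to 3 genes with the smallest unadjusted p were named, each by its brightest probe set. Alternatives were pseudocounts of 1 and 64, no filter and a 70th percentile filter, quantile normalization, median centring, no trend, array weights, a replicate block, averaging over each gene's probe sets, and leaving arrays out.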

Additional observations from a re-analysis of the deposited data

How the results depend on the processing

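The count of FGF probe sets with an adjusted p below 0.05 in limma was 0 under every alternative run. Median centring and array weights each called 2 probe sets over the whole array (Gpr143 and Kantr, and Kantr and Slc25a29), so the Gpr143 difference passed only with centring (-2.79, adjusted p = 0.000627). At an unadjusted p below 0.05, the count of FGF probe sets was 1 of 17 (Etv4) with array weights, where 11.4% of all probe sets passed, and with 1 array left out it ran from 0 to 1, the 1 being Etv4 without Oa1-/- replicate 1, where 4.36% passed. Of 158 alternative values for the 10 genes, 136 kept their sign and 22 turned it. Differences that turned were Fgfr2 with quantile normalization (0.00324) and median centring (0.013), Fgf15 with median centring (0.021) and array weights (0.062), Fgfr3 with array weights (-0.15), and Fgfr3 (-0.10) and Dusp6 (-0.052) without WT replicate 3 and Oa1-/- replicate 1 together. With 1 array left out, the differences ran from -0.12 to 0.14 for Fgf9, -0.049 to 0.054 for Fgf15, -0.19 to 0.17 for Fgfr2, -0.065 to 0.15 for Fgfr3, -0.061 to 0.11 for Dusp6 and -0.050 to 0.098 for Etv5, each through 0. The brightest probe set of Fgfr1 stayed positive and those of Spry1, Spry2 and Etv4 stayed negative under each alternative that tested them, with Etv4 between -0.79 and -0.18, but the mean over the 2 tested Spry2 probe sets was 0.045. Of the other genes, Fgfrl1 turned with array weights (-0.046), and with 1 array left out Fgfrl1 ran from -0.019 to 0.23, Fgf7 from -0.28 to 0.12, Fgf3 from -0.15 to 0.027 and Fgf14 from -0.78 to 0.23. Over all alternatives run, Dusp4 ran from 0.23 to 0.31, Spry4 from -0.66 to -0.41 and Gpc3 from -0.30 to -0.18, and an unadjusted p below 0.05 was found in 13 of 16, 10 of 15 and 10 of 16 of them. The cause of these shifts was not tested.

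With the replicate block, 0 FGF probe sets had an unadjusted p below 0.05, and over the array 346 were higher and 542 lower at that p, against 449 and 662 without it. Deviations of same-numbered samples correlated at -0.29, 0.15 and -0.25. WT replicates 1 and 3 correlated best with another number, and WT replicate 2 with its own. The labels state no block, and 3 samples per genotype are too few to tell whether same-numbered samples shared one. The 3 arrays per genotype limit the precision, and of the genes named Fgf14 had the widest error (SE 0.54).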

Other observations

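Probe sets of 1 gene did not always share a direction, and the genes here were picked after their values were seen. Araf, a Raf kinase gene, had log2 differences of 0.33 on 1435566_s_at and 0.52 on 1428607_at (unadjusted limma p just above 0.05 and 0.0111), but -0.50 on 1440764_at, -0.13 on 1426602_at and -0.0040 on 1445693_at. Dusp7 had -0.24 on 1452097_a_at and -0.40 on 1427416_x_at (unadjusted limma p 0.0384), but 0.043 on 1460393_a_at. Fgf14, an intracellular FGF homologous factor, had -0.38 on 1458830_at (SE 0.54) and 0.39 on 1435747_at (SE 0.19). Flrt2, a membrane protein of the same family as Flrt3, read a mean of 2526 in WT and 2426 in Oa1-/- on its brightest probe set, and 1124 and 813 on 1438702_at (log2 difference -0.48, unadjusted limma p 0.0204). The remaining probe set above the filter, 1456874_at, had a mean of 275 in WT and 208 in Oa1-/-.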
